A study of Mus musculus with 21 samples.

Results

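The BCL2 family comprises the proteins that hold or release the mitochondrial brake on cell death. Transcripts of 10 of its genes were followed through 7 fractions of blood-forming cells sorted from mouse bone marrow. The 10 genes were those given for the family: the survival genes Bcl2, Bcl2l1 and Mcl1, the effectors Bax and Bak1, and the BH3-only genes Bcl2l11, Bad, Bid, Bbc3 and Pmaip1. They were found by matching the accession of each array probe to a gene symbol, which gave 16 probes of 41174 on the array and all 10 genes of 18217 with a probe. Each gene is represented by its brightest probe, and the 10 brightest probes all passed the filter on dim signals. The rule is a list of names with no threshold on a measured value.

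The mice were of the C57BL/6 strain, and each fraction was measured on 3 of the 21 arrays. KLS cells (lin- ckit+ sca1+) are the most immature. On the erythroid side they are followed by PreMegE (labelled lin- ckit+ sca1+ with CD150+, CD105- and negative for the Fc gamma receptors), CFUe (the same but CD150-) and Ter119 (CD71+ Ter119+). On the myeloid side they are followed by PreGM (CD150- CD105-, Fc gamma receptor negative), GMP (CD150- and Fc gamma receptor positive) and Mac1Gr1 (Mac1+ Gr1+). The labels give CFUe and PreGM the same marker combination, so the marker label alone does not separate them. Neither the age of the animals nor whether the arrays of a fraction came from separate animals or pools is given in the labels, so p-values measure only the spread between these samples.

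BCL2, BCL-XL (the main product of Bcl2l1) and MCL1 bind and restrain the effectors BAX and BAK, which otherwise open pores in the outer mitochondrial membrane and release cytochrome c. BH3-only proteins, among them BIM (Bcl2l11), BAD, BID, PUMA (Bbc3) and NOXA (Pmaip1), carry stress signals to this balance by occupying the survival proteins or by activating the effectors. In blood, MCL1 is known to be required by stem cells and neutrophils, and BCL-XL by maturing red cell precursors.

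Levels are log2 intensities relative to the 75th percentile of the same array, so a level of 0 equals that percentile. Levels are compared between fractions for the same probe and never between probes. A difference was called where limma gave an adjusted p under 0.05 (Benjamini-Hochberg over the 29526 probes tested) and at least a 2-fold change. In sorted bulk samples, fewer cells of a type and less RNA per cell cannot be told apart.

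Sequences at the annotated starts of Bcl2l1 and Bax are shown because these genes had opposite changes between CFUe and Ter119. RefSeq windows (GRCm38.p6) of 300 bases, from 250 before to 50 after a start, were read for 9 of the 10 genes and numbered 15. Pmaip1 was left out of this search. Capitals mark matches, on either strand, to letters of motifs known for regulators of blood cells. The motif of GATA factors was searched as AGATAA and, in a less frequent form with another first letter, as TGATAA. The motif of PU.1, a myeloid factor, was searched as GGAAGTG, that of the cytokine-activated STAT factors as TTCNNNGAA, and that of MYC and related factors, which bind as pairs, as CACGTG. Of all 32851 windows in the same reference, 18.6% held the GATA letters, 11.0% the PU.1 letters, 8.3% the STAT letters and 7.15% the MYC letters. Bcl2l1 had 3 annotated starts on the minus strand of chromosome 2, and its windows at chr2:152828440-152828739 and chr2:152831679-152831978 and the Bax window at chr7:45466849-45467148, also on the minus strand, held matches.
Bcl2l1, start with a GATA match: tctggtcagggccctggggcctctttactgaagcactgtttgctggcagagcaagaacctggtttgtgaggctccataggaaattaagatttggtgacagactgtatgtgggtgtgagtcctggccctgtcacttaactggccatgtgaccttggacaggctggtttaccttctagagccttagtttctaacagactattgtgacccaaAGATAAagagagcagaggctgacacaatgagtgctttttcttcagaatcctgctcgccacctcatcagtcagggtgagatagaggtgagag
Bcl2l1, start with a PU.1 match: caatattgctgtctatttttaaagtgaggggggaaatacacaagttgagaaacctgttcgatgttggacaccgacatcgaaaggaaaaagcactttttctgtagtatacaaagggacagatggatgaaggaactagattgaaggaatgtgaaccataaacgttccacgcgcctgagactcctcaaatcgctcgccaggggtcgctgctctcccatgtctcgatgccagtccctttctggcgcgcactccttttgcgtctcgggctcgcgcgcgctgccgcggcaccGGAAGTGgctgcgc
Bax: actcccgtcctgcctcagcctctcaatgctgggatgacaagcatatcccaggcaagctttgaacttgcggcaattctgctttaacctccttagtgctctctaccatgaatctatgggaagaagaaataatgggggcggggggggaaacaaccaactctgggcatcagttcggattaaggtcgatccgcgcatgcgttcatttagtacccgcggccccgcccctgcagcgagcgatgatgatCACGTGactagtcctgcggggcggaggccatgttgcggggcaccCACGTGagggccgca

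The GATA match of Bcl2l1 began 41 bases before its start (position -41), and the PU.1 match at position 37 of the transcribed part of another start. The Bax window held the MYC letters at positions -9 and 36. Among the 15 windows of the family, 1 held GATA letters, 1 PU.1 letters, 2 MYC letters (those of Bax and of 1 Bbc3 start) and 0 the STAT letters. These matches describe letters in a window and are not binding sites, and the arrays do not tell which start was used.

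The fractions were checked against marker genes, and transcripts of other cell types stood out in Ter119, in KLS and, for B and T cell markers, in Mac1Gr1. The summed linear signal of 7 erythroid markers, relative to the 75th percentile, was 3420 to 4379 on the Ter119 arrays against 61.8 to 70.0 in CFUe and 8.20 to 11.4 in Mac1Gr1. The sum of 11 granulocytic markers was 4624 to 5249 in Mac1Gr1, but it was also 4344 to 5502 in Ter119, against 5.81 to 45.0 in CFUe, and all 11 were above background on every Ter119 array. The 6 B cell markers summed to 110 to 158 in Ter119, against 0.519 to 2.45 in CFUe and 24.99 to 44.7 in Mac1Gr1. In KLS the 6 macrophage markers, all above background on every array, summed to 16.6 to 45.6, against 0.33 to 0.686 in PreMegE, 0.679 to 0.78 in PreGM and 14.6 to 16.9 in Mac1Gr1. In GMP the B cell sum was 8.65 to 10.2, below that of Mac1Gr1. The 4 T cell markers summed to 6.20 to 7.84 in Mac1Gr1 against 0.485 to 0.705 in GMP. The part of these other transcripts in the Ter119, KLS and Mac1Gr1 levels below was not tested, and the Mac1Gr1 level is given beside the Ter119 level. The 75th percentile itself was an intensity of 196 to 292 on the Ter119 arrays, 345 to 401 in Mac1Gr1 and 503 to 1010 elsewhere.

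Over the 9 comparisons, 32 of the 90 differences were called, and each of the 10 genes was called at least once. Of the 29526 probes tested, single comparisons called from 2549 (KLS to PreGM) to 16879 (CFUe to Ter119). The share of all probes called at least once was not computed, so the count of 10 is not read as a trait of the family. From KLS to PreMegE none was called by limma, although 3 had an unadjusted p under 0.05, and 3.55% of all probes tested were called higher and 8.86% lower. From PreMegE to CFUe 3 genes were higher and 5 lower, against 9.96% and 14.7% of all probes. From CFUe to Ter119 4 were higher and 3 lower (Bak1 among the latter, on its brighter probe only), against 29.2% and 28% of all probes. On the myeloid side the first step changed 1 gene up and 1 down, against 2.11% and 6.52% of all probes. The step from PreGM to GMP changed 1 gene, downwards, against 6.36% of probes called lower and 4.01% called higher. From GMP to Mac1Gr1 2 genes were higher and 3 lower, against 29.1% and 27.6% of all probes. The members' share was thus above the background at the step from PreMegE to CFUe and close to it at both last steps.

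The split into higher and lower depended on the scaling, since scaling to the spike-in RNAs moved the median of all probes to -0.39 from PreMegE to CFUe, -1.33 from CFUe to Ter119, 0.99 from PreGM to GMP and -1.86 from GMP to Mac1Gr1, where the 75th percentile kept it between -0.07 and 0.22. With that scaling 0 members were called higher and 5 lower from PreMegE to CFUe, 2 and 6 from CFUe to Ter119, 5 and 0 from PreGM to GMP, and 0 and 8 from GMP to Mac1Gr1. In the same order 8068, 20599, 14524 and 22562 of all 29526 probes were called, higher or lower. Between lineages spike-in scaling gave 0 higher and 7 lower for CFUe against GMP, and 1 and 4 for Ter119 against Mac1Gr1. Of all probes 17716 and 14508 were called there. Quantile scaling called 1 higher and 5 lower from PreMegE to CFUe, against 6469 of all probes. Where a slide carried an array of both fractions, called differences could be read within it, 20 times in all. Of these values 19 had the sign of the fit, the exception being Pmaip1 for PreMegE against PreGM. These arrays are part of the fit, and fractions whose arrays do not overlap fix the sign in advance. The count is therefore no check on a slide effect. All values below are relative to the 75th percentile unless the scaling is named.

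**Figure D1:**
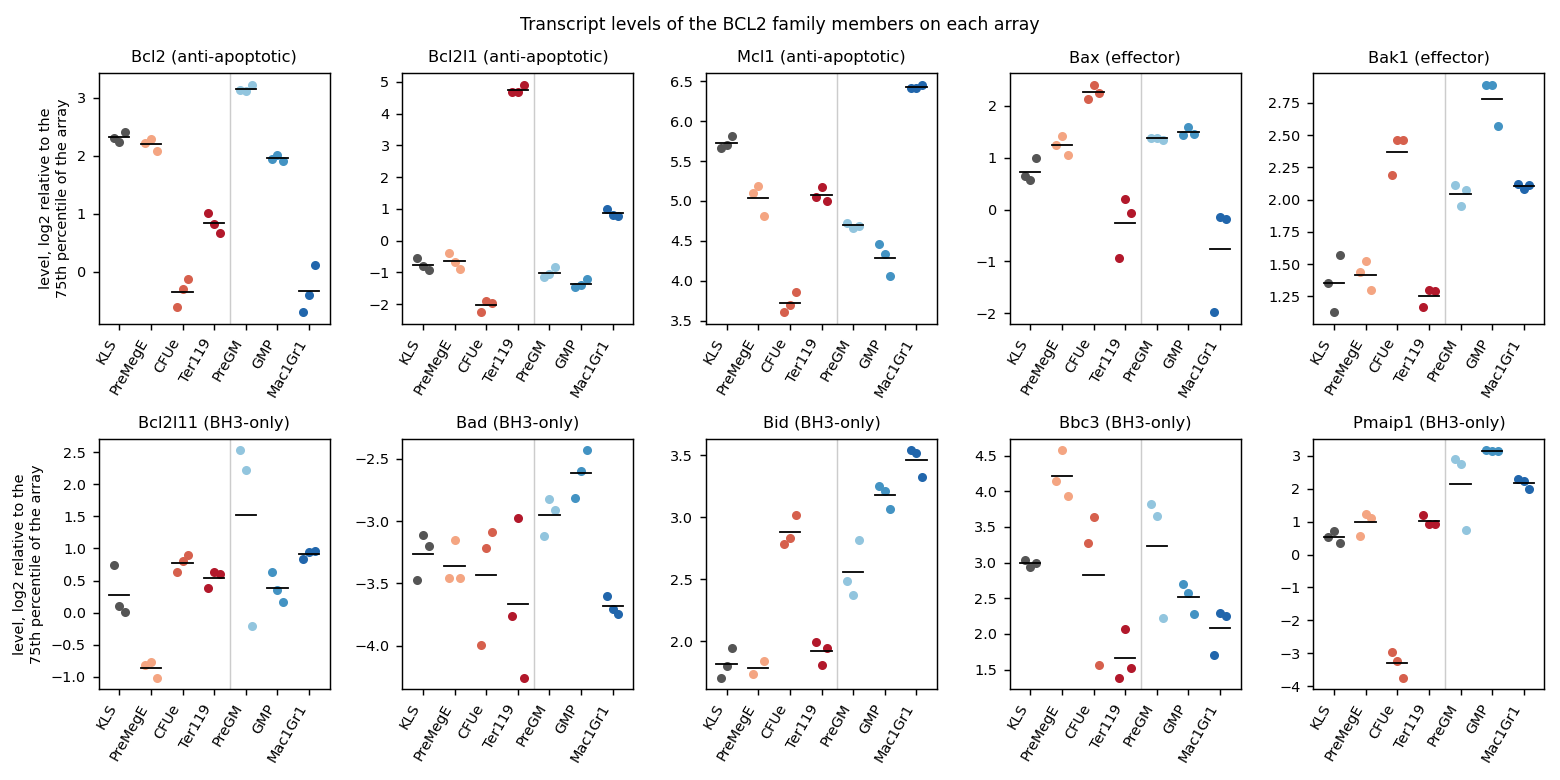
Level of each gene on each of the 21 arrays (vertical axis, log2 relative to the 75th percentile of the array, with a separate scale per gene), with the 7 fractions along the horizontal axis, the erythroid fractions in reds and the myeloid fractions in blues. Points are arrays in the order of replicates 1 to 3 and black lines are means; Bcl2l1 stood highest on all 3 Ter119 arrays, Pmaip1 lowest on all 3 CFUe arrays, and single low arrays are visible for Bcl2l11, Bbc3 and Pmaip1 in PreGM and for Bax in Mac1Gr1.

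Bcl2l1, which encodes the survival protein BCL-XL, had the widest range of the family, 6.80 on the log2 scale between CFUe and Ter119. Its level was -0.56, -0.80 and -0.93 on the KLS arrays, -0.39, -0.69 and -0.88 in PreMegE, -2.26, -1.90 and -1.98 in CFUe, and 4.67, 4.69 and 4.92 in Ter119. Its myeloid levels were -1.15, -1.06 and -0.84 in PreGM, -1.45, -1.39 and -1.22 in GMP, and 0.99, 0.79 and 0.79 in Mac1Gr1. All Ter119 arrays therefore lay above all others, Mac1Gr1 came next, and the CFUe arrays were the lowest. The gene fell by 1.39 from PreMegE to CFUe (SE 0.15, limma adjusted p = 6.24e-07) and then rose by 6.80 to Ter119, a 112-fold difference (SE 0.15, adjusted p = 1.02e-15). It also rose at the last myeloid step, by 2.21 (4.63-fold, adjusted p = 3.72e-10; 0.18 with spike-in scaling, adjusted p = 0.57, where the median of all probes was -1.86). Ter119 stood 15.0-fold above Mac1Gr1 (log2 difference 3.90, SE 0.15, adjusted p = 1.18e-12). The granulocytic sums of both fractions overlapped, and the B cell and mast cell or basophil sums were higher in Ter119. The part of other cell types in this difference was not tested. In the order of the means, neighbours among PreMegE, KLS, PreGM and GMP did not pass an adjusted p of 0.05, and the other pairs of neighbours did.

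The rise of Bcl2l1 was measured by 3 probes. The brightest was printed in 10 spots per array, whose SD had a median of 0.06 and reached 0.13 on any array. The other 2 probes, dimmer and printed once each, gave Ter119 minus CFUe as 6.42 and 5.88 (SE 0.22 and 0.35). They were above background on 1 and 2 of the 3 CFUe arrays, respectively, so that the CFUe end of their difference lay near the detection limit. Both also gave a rise from GMP to Mac1Gr1, of 2.16 and 1.86.

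Bcl2, the founding survival gene of the family, was highest in PreGM and lowest in CFUe and Mac1Gr1. Its levels were 2.30, 2.23 and 2.42 in KLS, 2.22, 2.29 and 2.08 in PreMegE, -0.61, -0.30 and -0.12 in CFUe, and 1.02, 0.83 and 0.67 in Ter119. They were 3.13, 3.11 and 3.23 in PreGM, 1.94, 2.02 and 1.91 in GMP, and -0.70, -0.40 and 0.12 in Mac1Gr1. The arrays of CFUe and Mac1Gr1 overlapped each other and lay below those of all other fractions. Bcl2 fell by 2.54 from PreMegE to CFUe (5.81-fold, SE 0.17, limma adjusted p = 3.18e-09). On the myeloid side it fell at both later steps, by 1.20 from PreGM to GMP and by 2.28 from GMP to Mac1Gr1 (adjusted p = 5.18e-05 and 1.57e-09). With spike-in scaling the first of these falls was not called (-0.18, adjusted p = 0.50, all-probe median 0.99).

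Between CFUe and Ter119 Bcl2 rose by 1.18 (2.27-fold, adjusted p = 6.67e-06), and Ter119 stood 1.16 above Mac1Gr1 (adjusted p = 1.27e-05); after scaling to the spike-in RNAs the first difference was -0.20 (adjusted p = 0.47), where the median of all probes was -1.33. The second difference was 0.44 (adjusted p = 0.13) with spike-in scaling, and it missed the 2-fold minimum with normexp (0.95) and without Mac1Gr1 replicate 1 (0.98). The second Bcl2 probe was printed in 10 spots and was annotated to another transcript of the gene than the first. It gave the same called directions with larger differences, -3.48 from PreMegE to CFUe and -3.51 from GMP to Mac1Gr1. It differed from the first in calling PreGM above KLS by 1.19 and PreMegE below PreGM by 1.48 (log2 difference -1.48), where the first probe gave 0.84 and -0.96. On that probe CFUe replicate 3 stood at -0.24 against -1.79 and -2.21 on the other CFUe arrays.

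Mcl1, whose short-lived product is a survival factor of stem cells and neutrophils, was highest in Mac1Gr1 and KLS. It measured 5.67, 5.70 and 5.82 in KLS, 5.10, 5.18 and 4.82 in PreMegE, 3.60, 3.69 and 3.86 in CFUe, and 5.04, 5.17 and 5.0 in Ter119. The myeloid levels were 4.72, 4.66 and 4.69 in PreGM, 4.46, 4.33 and 4.06 in GMP, and 6.42, 6.41 and 6.46 in Mac1Gr1. The CFUe arrays were below, and the Mac1Gr1 arrays above, every other array. Mcl1 fell by 1.31 from PreMegE to CFUe and rose by 2.15 from GMP to Mac1Gr1 (SE 0.12 each, limma adjusted p = 1.02e-07 and 3.19e-11), and both calls held on its second probe (-1.08 and 1.66). With spike-in scaling the rise to Mac1Gr1 was 0.11 (adjusted p = 0.70), relative to an all-probe median of -1.86.

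The rise of Mcl1 from CFUe to Ter119 was 1.35 (adjusted p = 1.38e-08) and was not called on the second probe; with spike-in scaling it was -0.02 (adjusted p = 0.94), relative to an all-probe median of -1.33. Ter119 lay 1.36 below Mac1Gr1 (log2 difference -1.36, adjusted p = 3.46e-08). The fall from KLS to PreGM, -1.04 on the brighter probe (adjusted p = 9.01e-06), also failed the 2-fold minimum on the second probe and, at -0.99, without KLS replicate 3. The macrophage markers of KLS moved with this fall, Vcam1 from a mean of 3.46 in KLS to -3.66 in PreGM and C1qc from 2.69 to -4.20, and their part in it was not tested. In the order of the means Ter119 and PreMegE could not be separated, and every other neighbouring pair differed.

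**Figure D2:**
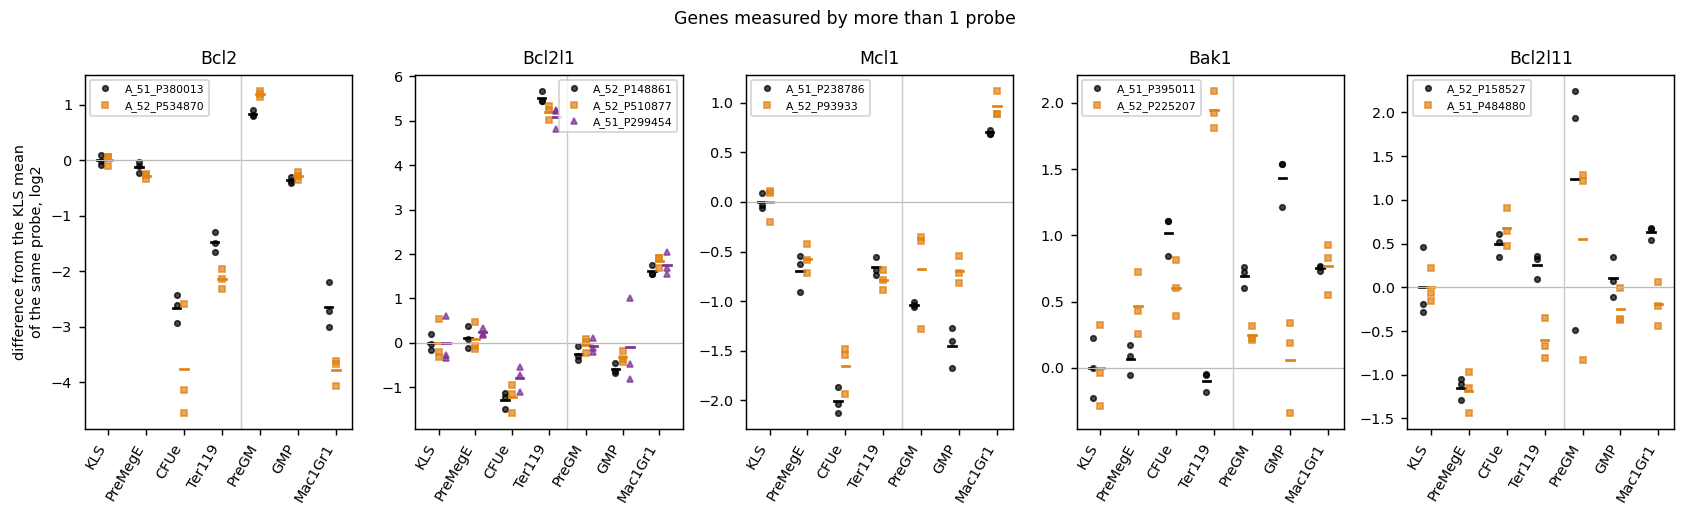
Difference of each array from the KLS mean of the same probe (vertical axis, log2) for the 5 genes with more than 1 probe, over the 7 fractions, with symbols and colours for probes and short lines for means. The probes of Bcl2, Bcl2l1 and Mcl1 traced like patterns, whereas the 2 Bak1 probes moved in opposite directions between CFUe and Ter119.

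Bax, a pore-forming effector, ran against the survival genes in the erythroid fractions at this scaling. Its mean was highest in CFUe, where Bcl2, Bcl2l1 and Mcl1 were all at their lowest mean. The Bax mean there could not be told from that of GMP (difference 0.77, limma adjusted p = 0.0861), nor the Bcl2 mean from that of Mac1Gr1 (adjusted p = 0.93). Bax levels were 0.64, 0.56 and 0.99 in KLS, 1.25, 1.42 and 1.05 in PreMegE, 2.13, 2.41 and 2.25 in CFUe, and -0.94, 0.21 and -0.07 in Ter119. They were 1.38, 1.39 and 1.35 in PreGM, 1.44, 1.58 and 1.46 in GMP, and -1.98, -0.14 and -0.18 in Mac1Gr1. The 3 CFUe arrays were the highest of all, and the Ter119 and Mac1Gr1 arrays were the lowest. Bax fell by 2.53 from CFUe to Ter119 (5.79-fold, SE 0.37, limma adjusted p = 7.23e-06) and by 2.26 from GMP to Mac1Gr1 (4.79-fold, adjusted p = 2.63e-05).

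The rise of Bax from PreMegE to CFUe was 1.02 (2.03-fold, adjusted p = 0.0271), and the arrays did not overlap, but the call was lost with quantile scaling (0.80, adjusted p = 0.0939), spike-in scaling (0.51, adjusted p = 0.38) and the series table (0.79, adjusted p = 0.10), and on leaving out PreMegE replicate 1 or 3 or CFUe replicate 2 or 3 (adjusted p 0.0531 to 0.0823). Mac1Gr1 replicate 1 lay well below the other arrays of its fraction, and its 10 Bax spots had an SD of 0.10, so that the low value was shared by the spots of that array. Only 1 probe measured Bax.

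Bak1, the other effector, was measured by 2 probes that did not move together. The brighter one stood at 1.35, 1.13 and 1.57 in KLS, 1.44, 1.52 and 1.30 in PreMegE, 2.19, 2.46 and 2.46 in CFUe, and 1.17, 1.30 and 1.30 in Ter119. In the myeloid fractions it was 2.11, 1.95 and 2.07, then 2.89, 2.89 and 2.57, then 2.12, 2.09 and 2.11. By the means GMP was its highest fraction and Ter119 its lowest. The Ter119 mean could not be told from that of KLS (difference 0.10, limma adjusted p = 0.50). The brighter probe fell by 1.12 from CFUe to Ter119 (limma adjusted p = 3.59e-07), whereas the second probe rose by 1.34 at the same step (adjusted p = 5.92e-06) and was highest in Ter119. The mean of the pair gave 0.11 (adjusted p = 0.39), so no direction is given for Bak1 at this step.

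Pmaip1, which encodes NOXA, a BH3-only protein that engages MCL1, was far lower in CFUe than in any other fraction. It measured 0.52, 0.72 and 0.35 in KLS, 0.57, 1.24 and 1.12 in PreMegE, -2.97, -3.22 and -3.74 in CFUe, and 1.20, 0.93 and 0.92 in Ter119. The myeloid levels were 2.92, 2.74 and 0.75 in PreGM, 3.18, 3.14 and 3.16 in GMP, and 2.30, 2.25 and 2.0 in Mac1Gr1. The CFUe arrays were far below all others yet above background, and GMP was the highest fraction. Pmaip1 fell by 4.29 from PreMegE to CFUe (19.5-fold, SE 0.39, limma adjusted p = 1.18e-07) and rose by 4.32 from CFUe to Ter119 (20.04-fold, adjusted p = 2.15e-08). CFUe stood 88.5-fold below GMP (log2 difference -6.47, adjusted p = 3.65e-10).

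Ter119 stood below Mac1Gr1 for Pmaip1, by 1.17 (log2 difference -1.17, adjusted p = 0.0146), a call lost when slides were blocked (-0.87, adjusted p = 0.27) and with quantile scaling (-0.94). From KLS to PreGM the gene rose by 1.60 (adjusted p = 0.00637), although PreGM replicate 3 stood at 0.75, near the KLS arrays; the slide block gave 1.60 with an adjusted p of 0.14, and spike-in scaling 0.99 with an adjusted p of 0.13. PreMegE was called below PreGM (-1.16, adjusted p = 0.0354) with overlapping arrays, and the call was lost on leaving out PreMegE replicate 1 or 3 or PreGM replicate 1 or 2. On the slide that carried PreMegE replicate 3 and PreGM replicate 3, that difference was 0.37.

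Bcl2l11, which encodes BIM, was lowest in PreMegE and showed the widest scatter in PreGM. Its levels were 0.75, 0.10 and 0.00 in KLS, -0.82, -0.76 and -1.01 in PreMegE, 0.63, 0.80 and 0.89 in CFUe, and 0.38, 0.64 and 0.60 in Ter119. PreGM gave 2.53, 2.23 and -0.20, GMP 0.63, 0.35 and 0.17, and Mac1Gr1 0.83, 0.95 and 0.96. The PreMegE arrays lay below all others, and 2 of the 3 PreGM arrays above all others. The gene rose by 1.64 from PreMegE to CFUe (3.12-fold, SE 0.46, limma adjusted p = 0.00656). With spike-in scaling this rise was 1.12 (adjusted p = 0.11). PreMegE stood 2.38 below PreGM (log2 difference -2.38, adjusted p = 0.000798), a call lost when limma was fitted to the compared fractions only (adjusted p = 0.0526). On the slide that carried replicate 3 of both fractions the difference was -0.81. On the slide with PreMegE replicate 2 and PreGM replicate 1 it was -3.29.

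Without PreGM replicate 3, further differences of Bcl2l11 were called: 2.10 for PreGM against KLS (adjusted p = 2.53e-06, from 1.24 with all arrays), -1.99 for GMP against PreGM (adjusted p = 2.46e-06, from -1.13) and -1.15 for PreMegE against KLS (adjusted p = 0.00012, against 0.0778 with all arrays). A second, dimmer probe had the same low array in PreGM (-3.59 against -1.48 and -1.54). It rose by 1.86 from PreMegE to CFUe, and fell by 1.28 from CFUe to Ter119, where the brighter probe gave -0.24.

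Bbc3, which encodes PUMA, was highest in PreMegE and lowest in Ter119. It measured 3.04, 2.93 and 2.99 in KLS, 4.15, 4.58 and 3.93 in PreMegE, 3.28, 3.64 and 1.56 in CFUe, and 1.39, 2.06 and 1.53 in Ter119. The myeloid levels were 3.82, 3.65 and 2.23 in PreGM, 2.69, 2.58 and 2.27 in GMP, and 1.71, 2.29 and 2.26 in Mac1Gr1. The PreMegE arrays lay above all others, and CFUe replicate 3 and PreGM replicate 3 were far below their partners. Bbc3 fell by 1.39 from PreMegE to CFUe (limma adjusted p = 0.0153), but only by 0.76 without CFUe replicate 3 (adjusted p = 0.0992), and the slide block gave -1.03 (adjusted p = 0.14). Its fall from CFUe to Ter119 was 1.17 (adjusted p = 0.0259), with overlapping arrays, and was not called with quantile scaling, with the slide as a block or after leaving out CFUe replicate 1 or 2 or Ter119 replicate 1 or 3 (adjusted p up to 0.15). The rise from KLS to PreMegE, 1.23, had an adjusted p of 0.0523 and passed without CFUe replicate 3 (0.0100) or PreGM replicate 3 (0.0252).

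In CFUe replicate 3 and PreGM replicate 3, 10.2% and 7.01% of all probes lay at least 2-fold from the mean of the other arrays of the fraction. GMP replicate 3 had the highest such share, 11.3%, and the other arrays had 2.60% to 6.82%. PreGM replicate 3 thus lay just above the arrays of other fractions, but its partners in PreGM had only 2.98% and 3.53%. In PreGM replicate 3 the gap was -2.58 for Bcl2l11, -2.07 for Pmaip1 and -1.51 for Bbc3, and in CFUe replicate 3 it was -1.90 for Bbc3 on the log2 scale. CFUe replicate 3 had the highest granulocytic sum of its fraction, 45.0, and the highest sum of 6 stem cell markers, 1.91 against 0.238 and 0.258. PreGM replicate 3 had the highest sum of 4 mast cell or basophil markers of its fraction, 25.9 against 10.1 and 11.3. Its granulocytic sum was also the highest of the fraction, 1037 against 901 and 838. Among those markers Ltf stood at -0.12 against -3.79 and -3.75, whereas Mmp8 stood at -2.63 against -2.54 and -2.76. The part of these differences in the gaps was not tested. With CFUe replicate 3 and PreGM replicate 3 left out, which were chosen for their low values of these genes, 6 members were called from PreMegE to CFUe and 7 from CFUe to Ter119, against 8 and 7 with all arrays.

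Bid, whose product links death receptors to mitochondria, was higher in CFUe and in the 3 myeloid fractions than in KLS, PreMegE and Ter119. It stood at 1.71, 1.80 and 1.95 in KLS, at 1.74 and 1.84 in PreMegE (n = 2, since the spot of replicate 2 carried an outlier flag), at 2.78, 2.83 and 3.02 in CFUe, and at 1.99, 1.81 and 1.95 in Ter119. Myeloid levels were 2.49, 2.38 and 2.82 in PreGM, 3.25, 3.21 and 3.07 in GMP, and 3.54, 3.52 and 3.33 in Mac1Gr1. Its arrays of KLS, PreMegE and Ter119 overlapped and lay below those of the other fractions, and the myeloid steps were not called. The rise from PreMegE to CFUe was 1.09 (2.13-fold, limma adjusted p = 6.89e-06; 0.79 with quantile scaling and 0.48 with spike-in scaling, both under the 2-fold minimum), and Ter119 lay 2.92-fold below Mac1Gr1 (log2 difference -1.54, adjusted p = 2.31e-08).

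Bad, whose BH3 protein answers to growth factor signalling, was dim throughout, between -4.26 and -2.43 on all 21 arrays and above background on 2 of the 3 Ter119 arrays. Its mean was highest in GMP (-2.61 ± 0.19, SD, n = 3) and lowest in Mac1Gr1 (-3.68 ± 0.07, SD, n = 3). That difference, -1.07, was called (limma adjusted p = 0.00146) but became 0.01 (adjusted p = 0.93) after normexp background correction with an offset of 50 and missed the 2-fold minimum without GMP replicate 3 (-0.98). No neighbouring fractions in the order of its means differed, and the same held for Bbc3 and Bcl2l11.

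**Figure D3:**
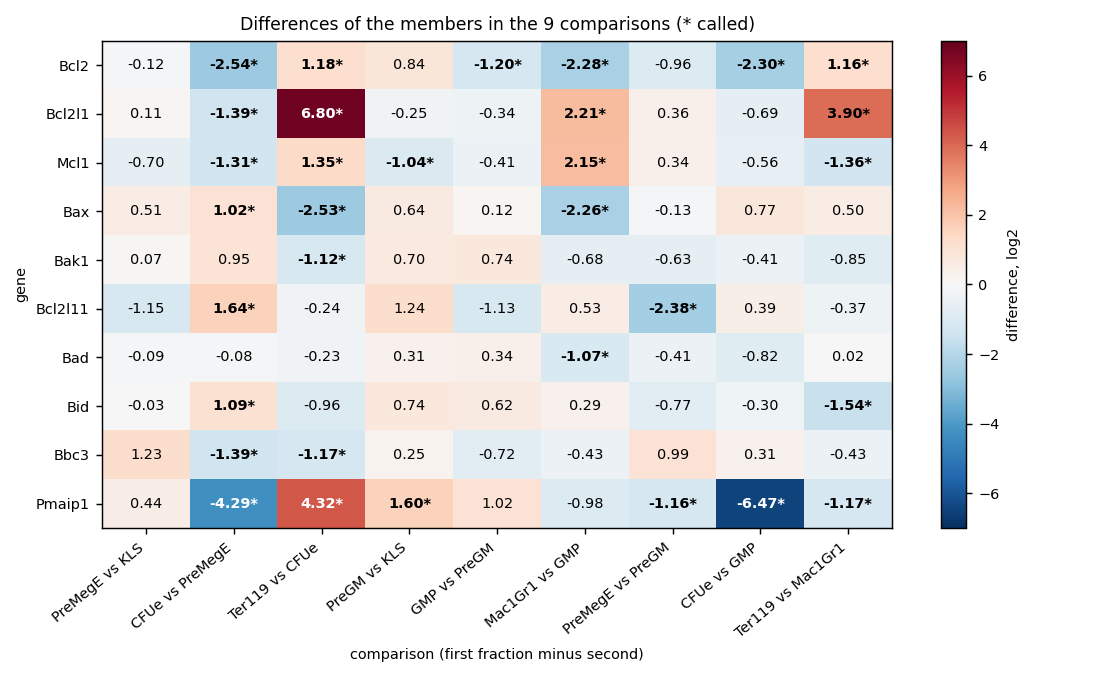
Differences of the 10 genes in the 9 comparisons on the log2 scale, printed in each cell and coloured from blue (first fraction lower) to red (first fraction higher), with asterisks and bold type for called differences. The step from PreMegE to CFUe has the most called cells, 8 of 10, and the largest differences are those of Bcl2l1 from CFUe to Ter119 (6.80) and of Pmaip1 between CFUe and GMP (-6.47).

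All 10 genes differed among the 7 fractions by the moderated F-test (adjusted p up to 0.00966, that of Bad), but so did 94.7% of all probes tested. The range of the fraction means had a median of 2.64 over the members, against 2.35 over all probes tested (quartiles 1.54 and 3.63). Bcl2l1 and Pmaip1 had the widest ranges, Bad (1.07) and Bak1 (1.53, brighter probe only) the narrowest.

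Comparing like stages of the 2 lineages, PreMegE was below PreGM for 2 members (Bcl2l11 and Pmaip1, above), where 6.23% of all probes were called lower and 5.81% higher. CFUe was below GMP for Bcl2 (-2.30, limma adjusted p = 4.53e-09) and Pmaip1, against 14.2% of probes lower and 12.1% higher. Ter119 was above Mac1Gr1 for Bcl2l1 and Bcl2 and below it for Mcl1, Bid and Pmaip1, against 22% of probes higher and 19.9% lower.

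Whether a step differed between lineages was tested as the erythroid change minus the myeloid change. At the second step (PreMegE to CFUe against PreGM to GMP) 4 members differed at least 2-fold, against 20.2% of all probes. Pmaip1 fell by 4.29 in the erythroid branch and measured 1.02 (not called) in the myeloid one, a difference of -5.31 (SE 0.55, limma adjusted p = 1.38e-06). Bcl2 fell in both and more in the erythroid one (-1.34, adjusted p = 0.000348), and Bcl2l1 differed by -1.05 (adjusted p = 0.000799; between -0.95 and -0.69 with quantile scaling, the series table and normexp). Bcl2l11 differed by 2.77 (adjusted p = 0.00311), and by 1.24 (adjusted p = 0.14) with spike-in scaling. At the third step (CFUe to Ter119 against GMP to Mac1Gr1) 4 members differed, against 39.9% of all probes: Pmaip1 by 5.30, Bcl2l1 by 4.59, Bcl2 by 3.46 and Bid by -1.25 (adjusted p = 4.96e-07, 3.08e-11, 3.96e-09 and 1.84e-05). The Bid call was lost with quantile scaling (-0.68), the series table (-0.75, adjusted p = 0.0893) and spike-in scaling (-0.59, adjusted p = 0.24). Bax fell in both lineages at this step, and its difference, -0.27 (SE 0.52), had an adjusted p of 0.69.

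The genes that act beside the family were read from a list of 54, of which 51 had a probe and 50 were tested. From PreMegE to CFUe, 12 of the 50 rose and 3 fell, where 9.96% of all probes were called higher and 14.7% lower. The 12 included 5 of 14 caspases and factors released from mitochondria, among them Htra2 (1.74), Endog, a nuclease (1.63), and Cycs, which encodes cytochrome c (1.61). They also included Vdac1 and Vdac2, channels of the outer mitochondrial membrane (1.102 and 1.08), which missed the 2-fold minimum with quantile scaling (0.60 and 0.70), the series table (0.70 each) and spike-in scaling (0.58 and 0.57). The 3 that fell were death receptor genes or their adaptors: Tnfrsf1a (-2.51), Cflar (-1.58), which restrains caspase-8, and Fas (-1.02). The Fas probe was above background on 2 of the 3 arrays in both fractions, and its fall was under 2-fold with quantile scaling (-0.76), the series table (-0.80), normexp (-0.28), the slide block (-0.95) and without PreMegE replicate 1 or CFUe replicate 1 or 3. The largest rise was that of Bcl2l15, a less studied family gene (3.77, 13.6-fold, limma adjusted p = 6.65e-10).

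From CFUe to Ter119, 15 of the 50 rose and 20 fell (7 and 32 with spike-in scaling, which gave 6 and 12 for the step before), against 29.2% of all probes called higher and 28% lower. Among the caspases and released factors 8 of 14 fell, among them Aifm1 (-3.13) and Cycs (-2.93), and all 3 Vdac genes fell (-2.55, -2.14 and -1.58). Cycs stood at 5.64, 5.74 and 5.60 on the CFUe arrays and 2.53, 2.75 and 2.90 in Ter119. The same gene fell by 2.54 from GMP to Mac1Gr1. Casp9, the initiator caspase of the mitochondrial route, rose by 1.89 from GMP to Mac1Gr1 (limma adjusted p = 1.5e-09). With spike-in scaling Casp9 was at -0.15 for this step, where the median of all probes was -1.86.

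Bnip3l, which encodes NIX, a protein that clears mitochondria from maturing red cells, rose by 3.95 from CFUe to Ter119 (15.5-fold, limma adjusted p = 6.41e-14). Its levels were 6.60, 6.48 and 6.43 in Ter119 against 3.76, 3.74 and 3.64 in Mac1Gr1, a difference of 2.79 (adjusted p = 1.68e-11). Stat5a, a transducer of erythropoietin signals, fell by 3.01 between the same erythroid fractions. Other genes that rose there were Bcl2a1b (5.55), a survival gene of myeloid cells, Fas (4.30) and Tnfrsf1a (4.06). Bcl2a1b was above background on 1 and Fas on 2 of the 3 CFUe arrays, so the CFUe end of their differences lay near the detection limit. Each of these genes was higher still in Mac1Gr1, with Ter119 minus Mac1Gr1 at -1.20, -2.74 and -2.48. The granulocytic, B cell and mast cell or basophil sums were also higher in Ter119 than in CFUe. The part of other cell types in the rises of Bcl2a1b, Fas and Tnfrsf1a was not tested.

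**Figure D4:**
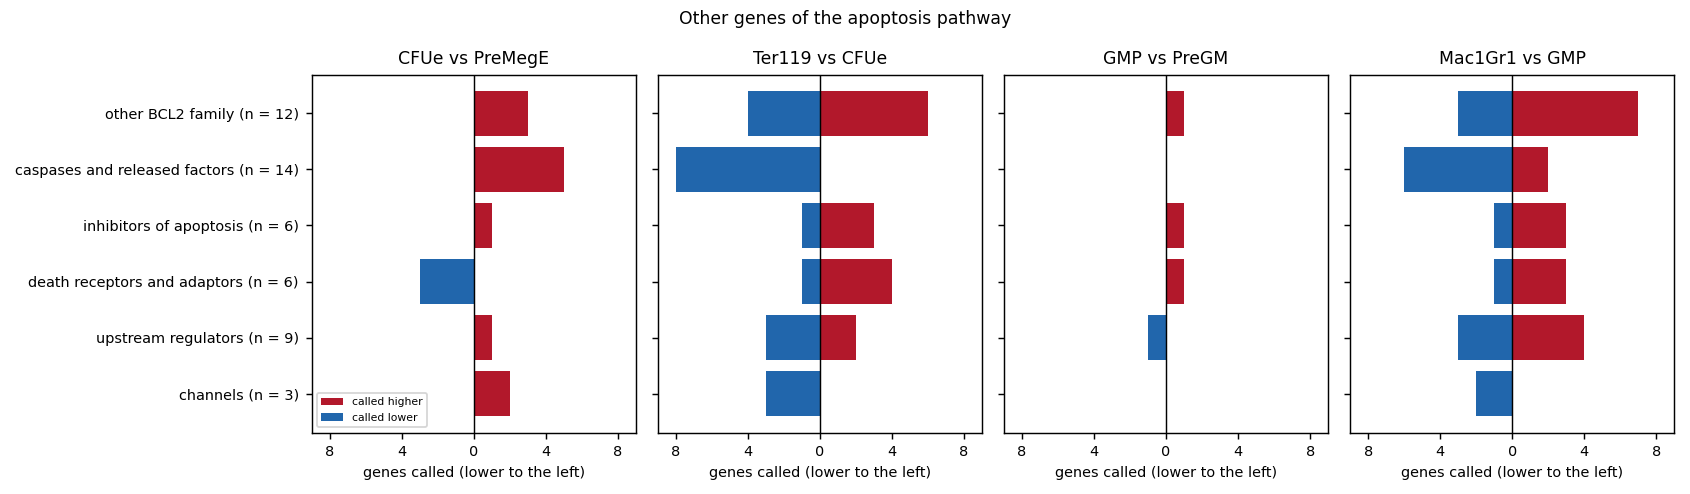
Numbers of the other pathway genes called higher (red, to the right) or lower (blue, to the left) at the steps after the first of each lineage (horizontal axis, genes), by group (vertical axis, with the number tested). Released factors and caspases show 5 rises from PreMegE to CFUe and 8 falls from CFUe to Ter119, and the step from PreGM to GMP has few calls.

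At the last myeloid step 19 of the 50 rose and 16 fell (3 and 31 with spike-in scaling), against 29.1% and 27.6% of all probes. Fas rose most, by 5.23 (37.5-fold, limma adjusted p = 2.25e-14), with levels of 2.98, 3.04 and 2.92 in Mac1Gr1 against -2.07, -2.49 and -2.18 in GMP. Foxo3, a transcription factor known to drive Bcl2l11, rose by 3.60, and Endog fell by 3.63. From PreGM to GMP 4 of the 50 were called (32 with spike-in scaling, all higher), against 4.01% of all probes higher and 6.36% lower: Naip2 (2.34), Bcl2l15 (2.25) and Fas (1.64) rose and Foxo3 fell (-1.83). With normexp Bcl2l15 (0.88) and Fas (0.80) missed the 2-fold minimum, and with spike-in scaling Foxo3 did (-0.81).

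The genes whose 7 fraction means followed each member best were found among 14280 genes by Pearson correlation, as a description without a test, since all points come from the same 21 arrays. For Bcl2 they were 4930579K19Rik, Cdkn1a and H2-DMa (r = 0.989, 0.982 and 0.982), and for Bcl2l1 Olfr1000, Olfr181 and Spesp1 (0.994, 0.993 and 0.992). The matches of Bcl2l1 rested mostly on Ter119, since its mean of 4.76 there was far above the next, 0.86 in Mac1Gr1. The Ter119 arrays also had the lowest 75th percentile, whose part in these matches was not tested. Mcl1 was followed by Lypd6b, Ccser2 and Slfn9 (0.984, 0.981 and 0.981). Bax was followed most closely, by Magohb, Pop1 and Med27 (0.999 each), and Bak1 by Mrpl43, Sec22b and Gdi2 (0.982, 0.974 and 0.970). The BH3-only genes were led by Tmem181a for Bid (0.988), Tex2 for Bad (0.982), Fcgr2b for Pmaip1 (0.980), Usp48 for Bbc3 (0.976) and Olfr433 for Bcl2l11 (0.942). Bcl2l11 was thus the member with the weakest best match. Within the family the closest pair was Bak1 and Bid (r = 0.867), and Mcl1 and Bax ran most opposite (r = -0.860). The Bak1 correlations used only its brighter probe, which the second did not follow from CFUe to Ter119.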

How the data were processed

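Total RNA of 7 sorted fractions was amplified, labelled with Cy3 and hybridised in 1 colour to Agilent arrays, with 3 arrays per fraction on 9 slides scanned on 1 day. The deposited scanner files hold a background-corrected intensity per spot, made by the authors in Agilent Feature Extraction, version 10.7.1.1 (probe annotation build mm9). The series table, also deposited, gives log2 values after normalization between arrays by the authors, with medians of 6.15 to 6.23, and served as an alternative; it ranked the probes as the scanner values did (rank correlation at least 0.9998).

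Each intensity was taken as log2 minus the 75th percentile of its array over 43379 non-control spots. Outlier-flagged spots (80 to 283 per array) were left out, none was saturated, and spots of a probe were averaged. A probe was tested if some fraction had it well above background on its 3 arrays (29526 probes). The test was two-sided in limma 3.58.1 under R 4.3.3, by lmFit and eBayes, with a mean per fraction, no block, 14 residual degrees of freedom, Benjamini-Hochberg within each comparison. The median residual SD was 0.262, and the number of arrays limits the precision. The procedure was tested on simulated data. Symbols came from RefSeq accessions.

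Members and lists were chosen with earlier results of these data known. Named genes were the members, pathway genes called at 2 or more steps of a lineage or with the largest change of their group, and the genes most like each member. Bcl2a1a, Bcl2a1d, Bok and the markers Hbb-b1, Cd68 and Kit had no matched probe and were not analysed here, and Bcl2l10 did not pass the filter. Sums of the remaining marker lists were highest, by their medians, in KLS for macrophage (16.6 to 45.6) and stem cell markers (144 to 156), in PreMegE for megakaryocyte markers (38.5 to 48.2), in Mac1Gr1 for T cell markers (6.20 to 7.84, Ter119 6.40 to 7.28) and in Ter119 for mast cell or basophil markers (18.7 to 24.8). Alternatives comprised the scaling, the background correction, the series table, the filter on dim probes, the mean of a gene's probes, the slide or the replicate number as a block, the compared fractions only, no minimum fold and leaving out arrays. Figures were drawn with Python, pandas and matplotlib.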

Additional observations from a re-analysis of the deposited data

Results flagged for a closer look

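At 1 or both of the later steps, the change along the erythroid branch differed from that along the myeloid branch for 7 of the 10 genes, by limma's test of the difference between both changes at an adjusted p under 0.05. At that threshold 5 members differed at the second step, against 10115 of the 29526 probes tested. At the third step 6 did, against 16234 probes. The share of probes that differed at 1 or both steps was not computed. The values are erythroid minus myeloid on the log2 scale. At the second step, from PreMegE to CFUe against PreGM to GMP, the survival genes all had negative values, -1.34 for Bcl2 (SE 0.24, limma adjusted p = 0.000348), -1.05 for Bcl2l1 (SE 0.21, adjusted p = 0.000799) and -0.90 for Mcl1 (SE 0.17, adjusted p = 0.000478, under the 2-fold minimum). Among the BH3-only genes Bcl2l11 stood at 2.77 (SE 0.65, adjusted p = 0.00311), with PreGM replicate 3 far from its partners (1.24 with spike-in scaling, adjusted p = 0.14), and Pmaip1 at -5.31 (SE 0.55, adjusted p = 1.38e-06).

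At the third step, from CFUe to Ter119 against GMP to Mac1Gr1, the survival genes no longer shared a sign. Bcl2 stood at 3.46 and Bcl2l1 at 4.59 (adjusted p = 3.96e-09 and 3.08e-11), whereas Mcl1 stood at -0.79 (adjusted p = 0.000698). Pmaip1 was at 5.30 and Bid at -1.25 (adjusted p = 4.96e-07 and 1.84e-05); Bid was at -0.68 with quantile scaling, -0.75 (adjusted p = 0.0893) with the series table and -0.59 (adjusted p = 0.24) with spike-in scaling. Bak1 was at -0.44 (adjusted p = 0.0455) on its brighter probe and at 0.63 (adjusted p = 0.0557) on the other. All values of that step include the Ter119 arrays with their granulocytic transcripts.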

How the results depend on the processing

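Counts of members called stayed within 1.5 times the values given under most alternatives, and the exceptions follow, with the cause not tested. Spike-in scaling gave 2 members from KLS to PreMegE (from 0), 5 from PreMegE to CFUe (from 8), 1 from KLS to PreGM (from 2), 5 from PreGM to GMP (from 1), 8 from GMP to Mac1Gr1 (from 5), 1 for PreMegE against PreGM (from 2), 7 for CFUe against GMP (from 2) and 8 for the second-step difference between lineages (from 4). In the same order it called 4509, 8068, 5602, 14524, 22562, 3615, 17716 and 19193 of all 29526 probes. It also turned Bcl2 (-0.20) and Mcl1 (-0.022) from CFUe to Ter119, Bcl2l11 (-1.50), Bid (-1.75) and Casp9 (-0.15) from GMP to Mac1Gr1, and the second-step difference of Bak1 (-1.32) and Bid (-1.15); relative to the all-probe median of that scaling these 7 were above 0 (0.07 to 1.71). Normexp gave 1 member from KLS to PreMegE and 2 from PreGM to GMP, and turned Bad to 0.014 from GMP to Mac1Gr1. The mean of a gene's probes gave 1 from KLS to PreMegE and turned Bak1 to 0.11 from CFUe to Ter119. The compared fractions alone gave 2 from KLS to PreMegE, 1 from KLS to PreGM and 0 for PreMegE against PreGM. The series table gave 3 for Ter119 against Mac1Gr1 (from 5), the slide as a block 1 from KLS to PreGM and 1 for PreMegE against PreGM, and keeping the dim probes 1 for the latter. Without a minimum fold the counts were 1 from KLS to PreMegE, 5 from KLS to PreGM, 4 from PreGM to GMP, 8 from GMP to Mac1Gr1, 6 for PreMegE against PreGM and 6 for CFUe against GMP. In the same order 7732, 7579, 7773, 22247, 8122 and 15907 of all probes were called, and 15020 from PreMegE to CFUe. Of the 50 pathway genes, 33 from PreMegE to CFUe (from 15) and 17 from PreGM to GMP (from 4) were called without a minimum fold, and at the latter step 32 with spike-in scaling and 2 with normexp. Without CFUe replicate 3 and PreGM replicate 3, chosen after seeing the data, 2 members were called from KLS to PreMegE and 3 from PreGM to GMP. Leaving out 1 array at a time gave 0 to 2 members from KLS to PreMegE, 6 to 9 from PreMegE to CFUe, 6 to 7 from CFUe to Ter119, 1 to 3 from KLS to PreGM, 1 to 3 from PreGM to GMP, 4 to 6 from GMP to Mac1Gr1, 1 to 3 for PreMegE against PreGM, 2 for CFUe against GMP, 4 to 5 for Ter119 against Mac1Gr1, 3 to 5 and 4 to 6 for the second- and third-step differences, and 10 for differences among the fractions. For the pathway genes it gave 14 to 16 from PreMegE to CFUe, 34 to 36 from CFUe to Ter119, 4 to 5 from PreGM to GMP and 34 to 37 from GMP to Mac1Gr1. For same-numbered arrays of different fractions, deviations from the fraction means correlated at -0.37 to 0.37 over 27 pairs, with 9 over 0.1. Differently numbered pairs were not computed for comparison, so whether same-numbered arrays shared more than a number was not settled. With the replicate number as a block, 1 member was called from KLS to PreMegE (Bbc3, adjusted p = 0.0256) and 2 from PreGM to GMP (Pmaip1 besides Bcl2, adjusted p = 0.0489), and no call of a member was lost. Dim probes, Bad among them, limit what the arrays can show near background.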
